A study of Mus musculus with 16 samples.

Results

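Interferons are cytokines that warn cells of infection. Type I interferon binds the receptor chains Ifnar1 and Ifnar2, the kinases Jak1 and Tyk2 signal to the complex ISGF3, which holds Stat2 and Irf9 and switches on interferon-induced genes through a DNA element rich in GAAA repeats. The proteins made from these genes sense foreign nucleic acid, block viral replication and feed back on the pathway, and the interferon regulatory factors (IRFs) bind related elements as activators or repressors. The set described here comprises 35 such genes, chosen by symbol from known interferon biology, with earlier results of these data known. All 35 were found among the 38293 Ensembl genes counted in the series.

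Their RNA was compared between the mouse cell lines P6D4 and 70Z/3. The labels describe P6D4 as the murine thymic lymphoma line SCID.adh, at the DN3 stage of early thymocytes, and 70Z/3 as lymphoblasts at the pre-B stage. Each line was sequenced as 3 RNA libraries, and the labels name no interferon or other treatment in either line. Miz1, the zinc finger factor encoded by Zbtb17, was mapped by ChIP-Seq once per line. Each lineage is represented by 1 transformed line, so lineage and line cannot be told apart, and the labels do not tell whether replicate libraries stem from different cultures. The p-values therefore cover the spread among these libraries alone, and that spread may be technical.

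Gene counts totalled 48.3 to 54.8 M in P6D4 libraries and 45.5 to 48.9 M in 70Z/3 libraries. Log2 CPM correlated at 0.997 or more within lines and at 0.658 or less between lines. A correlation over so many genes cannot show that no library stood apart in some of them. Chi-square per degree of freedom between libraries of 1 line ran from 2.56 to 14.7. The 7 pre-B markers summed to 0.698 to 1.30 CPM in P6D4 and 1755 to 1803 CPM in 70Z/3, and the 7 thymocyte markers to 2294 to 2345 CPM in P6D4 and 2.43 to 3.48 CPM in 70Z/3. CPM are counts per M counts of a library, with library sizes adjusted by the trimmed mean of M values. The 6 myeloid markers summed to 31.0 to 37.7 CPM in P6D4 and 23.3 to 24.9 CPM in 70Z/3, but they differed in both directions. Itgam averaged 29.1 CPM in P6D4, against 7.07 CPM in 70Z/3, and Cd68 3.46 CPM in P6D4, against 1.99 CPM in 70Z/3, while Lyz2 averaged 1.96 CPM in P6D4, against 12.3 CPM in 70Z/3, and Csf1r 0.0123 CPM in P6D4, against 2.84 CPM in 70Z/3. The other myeloid markers, Adgre1 and Mpo, averaged under 0.05 CPM in both lines. The 4 plasmacytoid dendritic cell markers, a cell type known for interferon output, summed to 17.1 to 20.8 CPM in P6D4 and 19.7 to 29.2 CPM in 70Z/3, most of it from Cox6a2 (17.6 CPM in P6D4, against 23.7 CPM in 70Z/3). Ccr9 averaged 1.36 CPM in P6D4, against 0.0864 CPM in 70Z/3, Siglech 0.0265 CPM in P6D4, against 0.142 CPM in 70Z/3, and Klk1 was at 0 in both. The 4 stromal markers summed to 0 CPM in P6D4 and 0.0666 to 0.166 CPM in 70Z/3. The part of other cells in the members' values was not tested, and in such bulk RNA fewer expressing cells and less RNA per cell cannot be told apart.

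The interferon-induced genes did not shift as a block but were divided between the lines. Of the 35 genes, 33 had enough counts to test, and 14 were higher and 17 lower in P6D4 (edgeR quasi-likelihood test, adjusted p under 0.05), while Isg20 and Ifi35 were not called. Over all 13750 genes tested, 43.3% were higher and 43.2% lower by the same rule, 86.5% in all, so this count is close to that of genes in general. Against a 2-fold difference (glmTreat), 11 members were higher and 8 lower, where 16.6% and 18.6% of all genes were. That is 57.6% of the tested members and 35.2% of all tested genes past 2-fold in either direction. As the members were chosen with earlier results of these data known, these shares describe the list and cannot show an excess over other genes. The median log2 fold change of the 33 tested members was -0.20 and that of all genes 0.01, while the median size of the change without its sign was 1.65 for the members and 0.67 for all genes. Libraries of the lines did not overlap for 31 of the 33 tested members, and for 87.4% of all tested genes. Oas1a and Ifi44 had counts too low to test. Values within a line were tight: among members at 5 CPM or more, the coefficient of variation had a median of 5.93% in P6D4 and 4.25% in 70Z/3, with the highest at 20.5% for Oas3 in P6D4.

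**Figure D1:**
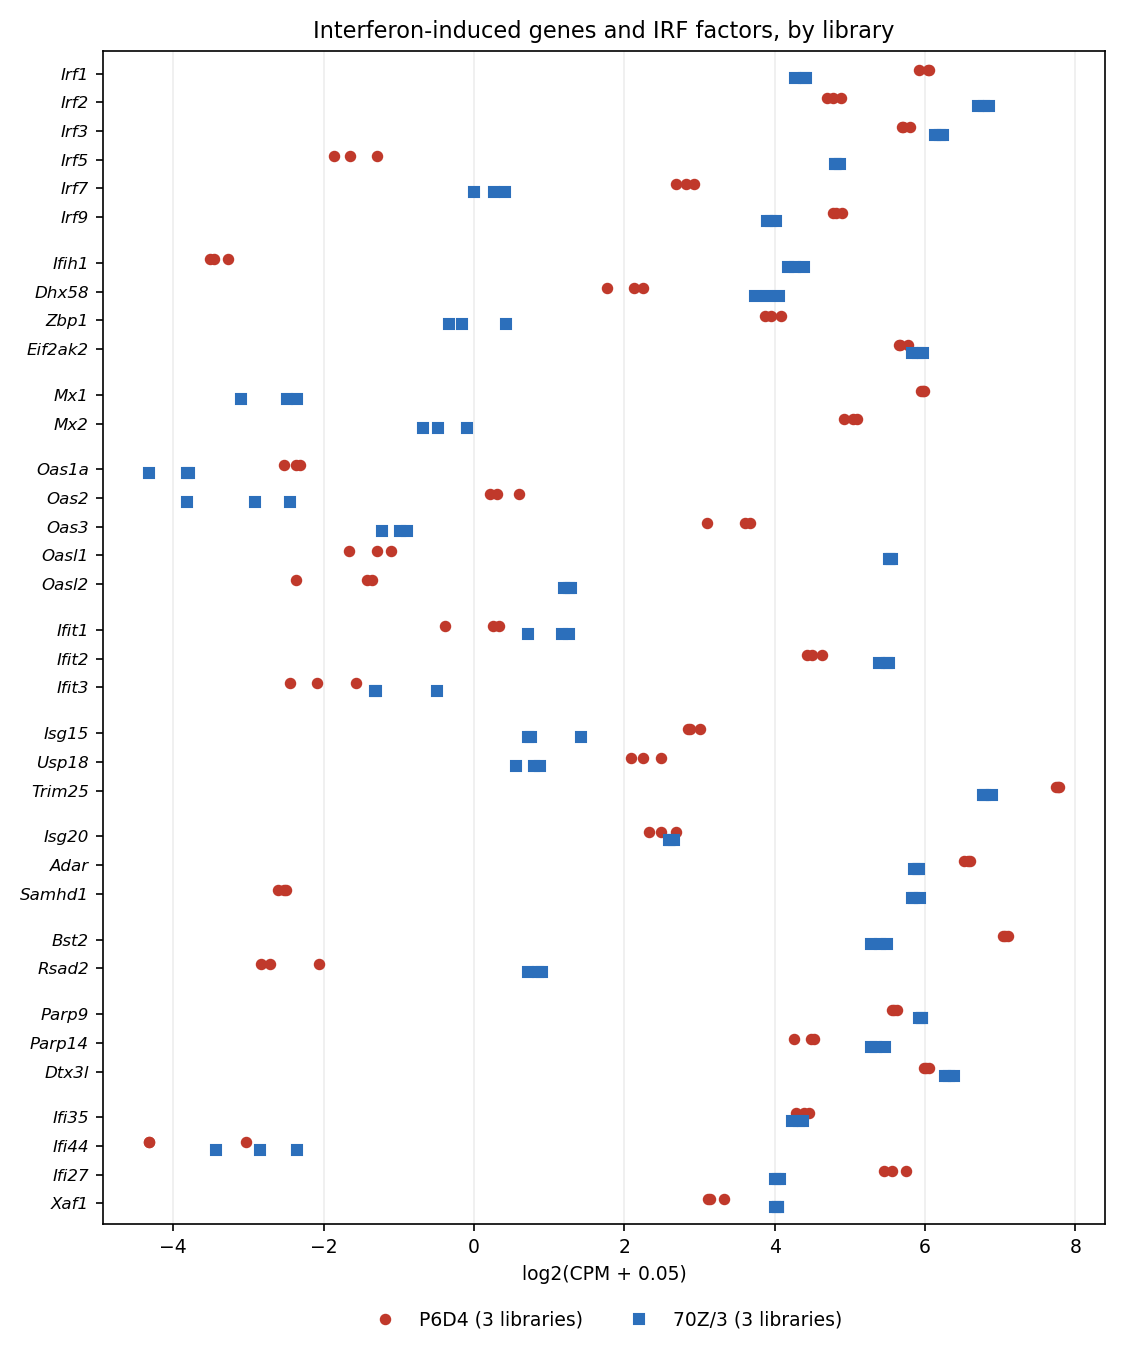
Level of each of the 35 members in each library, as log2(CPM + 0.05), grouped by role, with P6D4 as red circles and 70Z/3 as blue squares (3 libraries each). Points of a line lie close together, and for Mx1, Ifih1, Samhd1, Irf5 and Oasl1 the lines lie far apart in either direction; CPM are not corrected for gene length, so levels are to be compared within a gene.

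**Figure D2:**
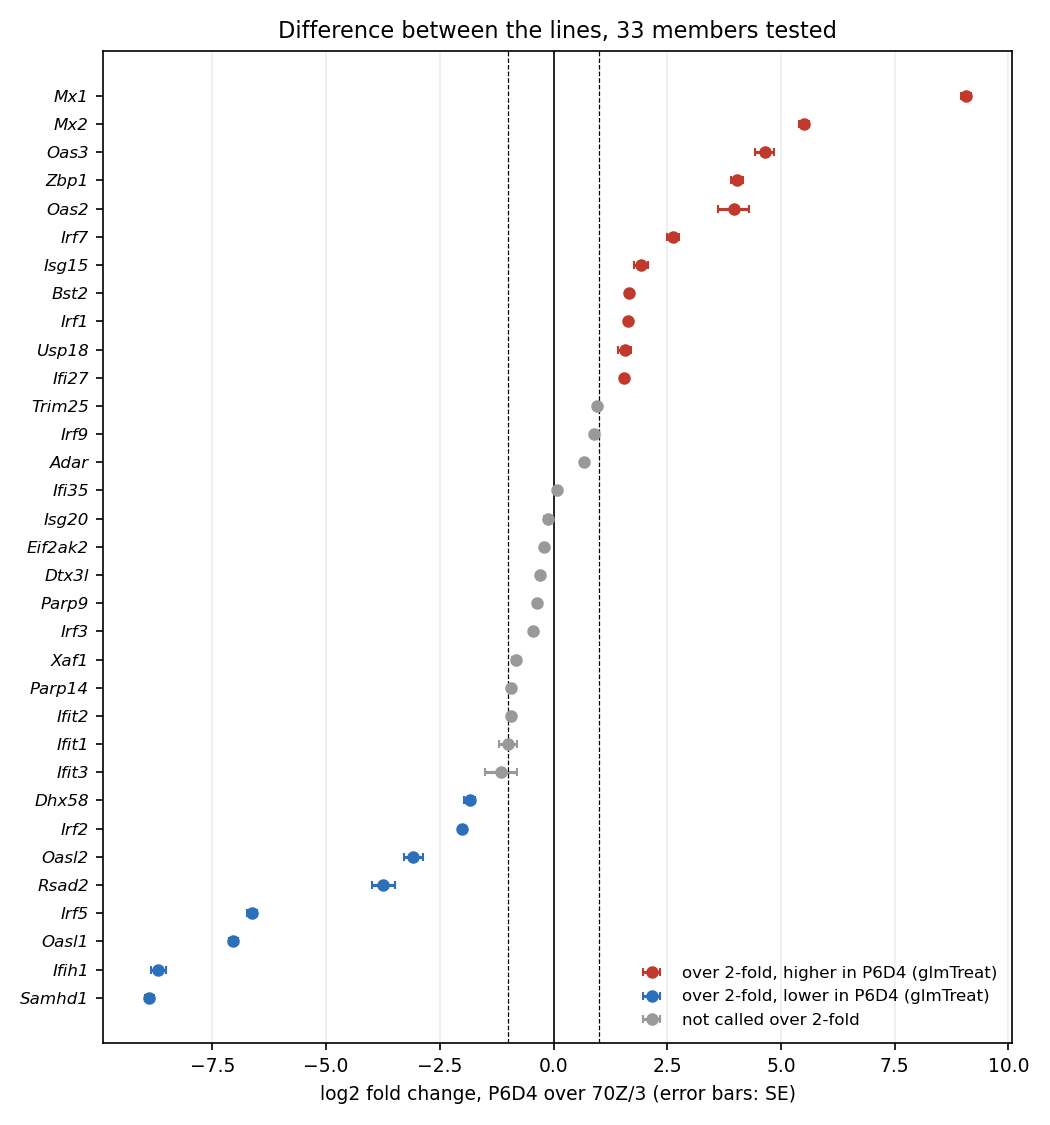
Log2 fold change of P6D4 over 70Z/3 with its SE for the 33 tested members, in order of size, with dashed lines at a 2-fold difference. The 11 members more than 2-fold higher in P6D4 are red, the 8 more than 2-fold lower are blue and the 14 others grey; the range runs from 9.07 for Mx1 to -8.89 for Samhd1.

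Promoters are shown first because some members that moved in opposite directions share the same type of sequence element. RefSeq promoters (build GRCm38.p6, 250 bases before to 50 after a start) were found for 26 of the 35 members, and the other members are Mx1, Mx2, Zbp1, Oas2, Ifi27, Dhx58, Usp18, Parp9 and Parp14. The motif GAAANNGAA followed by A, the core of interferon-stimulated response elements and of IRF sites, was searched on both strands, with overlapping matches counted. It occurred in 10 of the 26 members (38.5%) and in 3.99% of all 27025 genes with a promoter in the table. Of the 11 members more than 2-fold higher in P6D4 only 5 had a promoter, and 3 of these held the motif (Oas3, Isg15 and Bst2). Among the 8 more than 2-fold lower, 7 had a promoter and 3 held the motif (Ifih1, Rsad2 and Irf2). In the other 16 members, 14 had a promoter and 4 held the motif (Eif2ak2, Ifit1, Ifit3 and Oas1a). The stricter motif GAAANNGAA followed by AC was in 7 members and 0.944% of all genes, and GAAANNGAA alone in 13 members and 9.76% of all genes. TTCNNNGAA, a site of STAT factors that reads the same on both strands and was added after the data were seen, was in 10 members (38.5%) and 9.55% of all genes, among them Irf1 with the match TTCCCCGAA at -90. A match is a description of the letters and no evidence that a factor binds there in these cells.

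The promoters of the 6 members past 2-fold that hold GAAANNGAA followed by A are printed 5′ to 3′ on the strand of the gene, with each match in capitals. They lie at chr5:120777610-120777909 (Oas3, minus strand), chr4:156200769-156201068 (Isg15, minus), chr8:71537423-71537722 (Bst2, minus), chr2:62646206-62646505 (Ifih1, minus), chr12:26456403-26456702 (Rsad2, minus) and chr8:46739495-46739794 (Irf2, plus).
Oas3: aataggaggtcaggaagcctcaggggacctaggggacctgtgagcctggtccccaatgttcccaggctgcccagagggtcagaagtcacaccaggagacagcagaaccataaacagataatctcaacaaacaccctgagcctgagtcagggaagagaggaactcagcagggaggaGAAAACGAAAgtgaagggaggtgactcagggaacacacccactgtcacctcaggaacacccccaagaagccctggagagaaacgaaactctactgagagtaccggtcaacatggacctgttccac
Isg15: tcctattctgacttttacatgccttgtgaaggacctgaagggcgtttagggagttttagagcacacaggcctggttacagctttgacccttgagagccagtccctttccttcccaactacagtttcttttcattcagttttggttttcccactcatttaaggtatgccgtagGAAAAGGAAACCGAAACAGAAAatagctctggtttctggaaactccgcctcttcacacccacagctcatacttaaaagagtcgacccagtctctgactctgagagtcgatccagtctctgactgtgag
Bst2: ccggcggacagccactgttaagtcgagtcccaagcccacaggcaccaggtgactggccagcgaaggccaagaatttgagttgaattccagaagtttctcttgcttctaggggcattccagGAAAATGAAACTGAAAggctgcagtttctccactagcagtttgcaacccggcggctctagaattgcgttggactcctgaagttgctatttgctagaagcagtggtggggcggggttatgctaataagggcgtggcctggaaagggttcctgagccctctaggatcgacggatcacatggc
Ifih1: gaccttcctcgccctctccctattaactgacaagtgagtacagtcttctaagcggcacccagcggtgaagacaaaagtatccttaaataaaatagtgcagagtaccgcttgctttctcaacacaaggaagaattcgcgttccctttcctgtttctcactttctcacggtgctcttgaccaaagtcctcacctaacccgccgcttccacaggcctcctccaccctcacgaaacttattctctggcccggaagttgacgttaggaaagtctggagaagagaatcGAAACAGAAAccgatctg
Rsad2: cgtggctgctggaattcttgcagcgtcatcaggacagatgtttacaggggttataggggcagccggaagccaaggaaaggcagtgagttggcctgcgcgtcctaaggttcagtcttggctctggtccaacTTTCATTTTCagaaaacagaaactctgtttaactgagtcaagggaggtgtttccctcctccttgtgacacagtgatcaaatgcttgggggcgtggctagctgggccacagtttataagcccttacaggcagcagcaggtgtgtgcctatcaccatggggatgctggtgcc
Irf2: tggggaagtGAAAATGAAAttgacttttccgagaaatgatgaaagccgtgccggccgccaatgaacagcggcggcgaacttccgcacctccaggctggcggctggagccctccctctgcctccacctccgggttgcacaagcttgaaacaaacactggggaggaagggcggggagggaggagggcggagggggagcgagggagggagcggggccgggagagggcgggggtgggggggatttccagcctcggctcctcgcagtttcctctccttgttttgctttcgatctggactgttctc
Counting the first base of a match from the start of the gene, with bases before it negative, Isg15 held 3 overlapping matches at -78, -72 and -66, and Bst2 held 2 overlapping matches at -130 and -124. Oas3 had its match at -75, whereas Ifih1, lower in P6D4, had its match at 32, after the start. The match in Rsad2 at -120 is on the opposite strand, so its capitals are the reverse complement of the motif, and that in Irf2 lies at -241.

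Among the IRFs, 3 of 6 were higher and 3 lower in P6D4, where 43.3% and 43.2% of all tested genes were. Irf1, an activator that is itself induced by interferon gamma, had 60.6, 66.2 and 66.0 CPM in P6D4, against 21.3, 19.2 and 20.9 CPM in 70Z/3. All 3 P6D4 libraries lay above all 3 of 70Z/3, and the log2 fold change came to 1.65 ± 0.05 (SE; edgeR adjusted p = 1.97e-12). Irf2, which competes with Irf1 for the same sites and mostly represses them, had 25.9, 27.2 and 29.4 CPM in P6D4, against 115, 105 and 111 CPM in 70Z/3. Its log2 fold change was -2.002 ± 0.05 (edgeR adjusted p = 1.91e-13), so this pair stood in opposite order in the lines, with Irf1 the higher in P6D4 and Irf2 the higher in 70Z/3, each against its own level in the other line.

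Irf3 and Irf7 are the factors that turn on interferon genes after a sensor has fired. Irf3, which is made without stimulation, had 55.9, 51.7 and 52.1 CPM in P6D4, against 69.8, 73.7 and 75.2 CPM in 70Z/3. The lines did not overlap, and the difference of -0.45 ± 0.04 on the log2 scale passed the test (edgeR adjusted p = 3.32e-07) but stayed under 2-fold. Irf7, which depends on interferon for its own expression in most cells, had 7.03, 7.53 and 6.38 CPM in P6D4, against 1.15, 1.28 and 0.955 CPM in 70Z/3. Its log2 fold change was 2.62 ± 0.13 (edgeR adjusted p = 1.73e-10). Irf5 (ENSMUSG00000029771; chromosome 6, 29526130 to 29541869 in GRCm38.p6), which acts downstream of Toll-like receptors and Myd88, had 0.270, 0.361 and 0.226 CPM in P6D4, against 28.2, 29.3 and 28.0 CPM in 70Z/3. It was the most unequal of the 6 by fitted fold, at -6.62 ± 0.11 (edgeR adjusted p = 1.30e-15), with 15, 19 and 11 counts in P6D4 libraries. The SE understates the counting error at such low counts. Irf9, the DNA-binding part of ISGF3, had 28.2, 29.8 and 27.4 CPM in P6D4, against 14.8, 16.1 and 15.4 CPM in 70Z/3. It was higher by 0.88 ± 0.06 (edgeR adjusted p = 3.07e-09), under 2-fold.

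A further pair of IRF genes is given for comparison within the family. Irf4 averaged 3.27 ± 0.325 in P6D4 and 108 ± 2.16 in 70Z/3 (CPM with SD, n = 3 each), and Irf8 averaged 7.64 ± 0.196 in P6D4 and 240.4 ± 7.95 in 70Z/3 (CPM with SD, n = 3 each). Both are factors of B cell and myeloid development, and both were lower in P6D4, at -5.04 ± 0.06 and -4.97 ± 0.05 on the log2 scale (SE; edgeR adjusted p = 5.42e-17 and 6.20e-18).

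**Figure D3:**
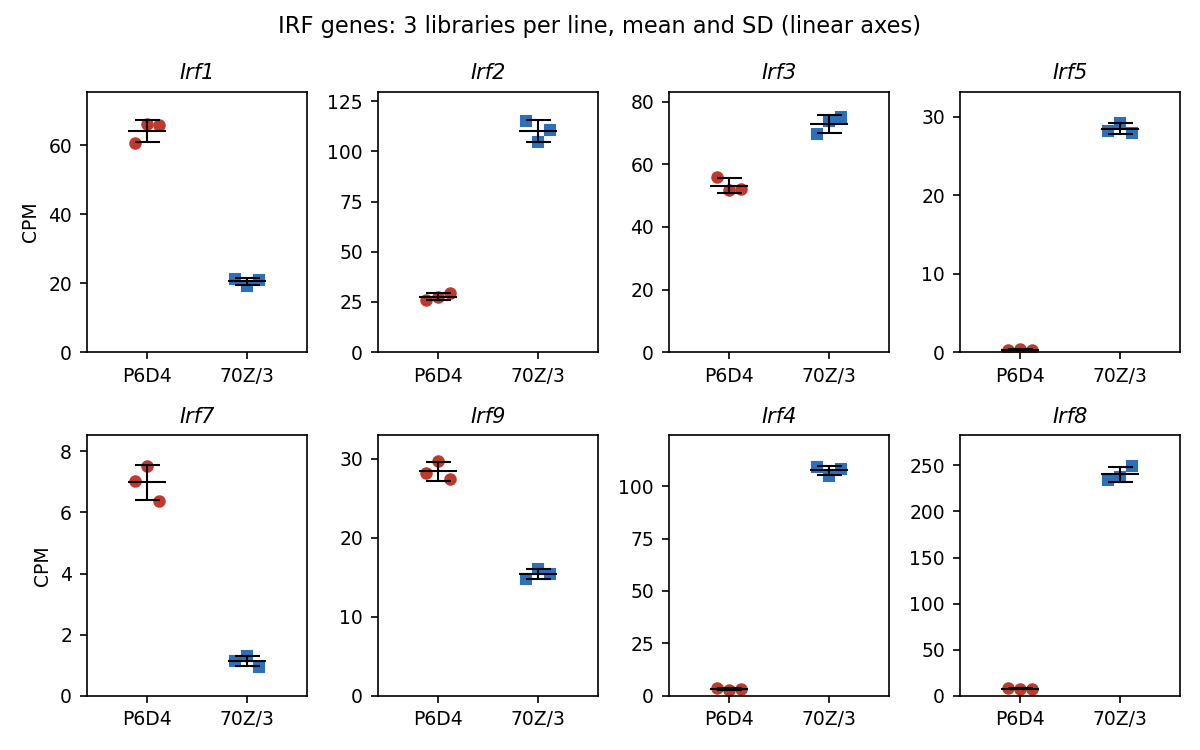
CPM of 8 IRF genes in each library on linear axes from 0, P6D4 left (red circles) and 70Z/3 right (blue squares), with the mean and SD of 3 libraries in black. Irf1, Irf7 and Irf9 are higher in P6D4 and Irf2, Irf3, Irf5, Irf4 and Irf8 lower, with no overlap between the lines in any of them. The lines do not overlap in 87.4% of all tested genes either.

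Of the 4 sensors of nucleic acid among the members, 1 was higher and 3 lower in P6D4, where 43.3% and 43.2% of all tested genes were. Zbp1, which binds left-handed nucleic acid and can start necroptosis, had 15.4, 17.0 and 14.6 CPM in P6D4, against 0.745, 0.850 and 1.29 CPM in 70Z/3, about 16.4-fold higher in P6D4 (edgeR adjusted p = 3.35e-12). Ifih1 encodes MDA5, a cytosolic sensor of long double-stranded RNA. It had 3, 2 and 2 counts in P6D4 libraries, or 0.0541, 0.0379 and 0.0410 CPM, against 21.0, 19.3 and 18.03 CPM in 70Z/3. With 7 counts in all in P6D4, the SE of 0.17 around its log2 fold change of -8.69 understates the counting error. Dhx58, which encodes LGP2 and tunes MDA5 signalling, was lower as well, with 4.72, 4.31 and 3.37 CPM in P6D4, against 16.6, 13.3 and 14.8 CPM in 70Z/3 (log2 fold change -1.84 ± 0.11 SE; edgeR adjusted p = 2.75e-09). Eif2ak2 encodes PKR, a kinase that stops translation when it binds double-stranded RNA. It differed little, at 52.0 ± 2.34 in P6D4 and 59.9 ± 3.09 in 70Z/3 (CPM with SD, n = 3 each), a change of -0.20 ± 0.05 that passed the edgeR test (adjusted p = 0.00127).

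Both Mx genes, dynamin-like GTPases that block RNA viruses, were higher in P6D4. Mx1 (ENSMUSG00000000386) had 63.5, 62.9 and 61.4 CPM in P6D4, against 0.128, 0.145 and 0.0666 CPM in 70Z/3, and the log2 fold change came to 9.07 ± 0.10 (SE; edgeR adjusted p = 3.93e-17), on 6, 7 and 3 counts in 70Z/3. With so few counts, this SE understates the counting error. Mx2 had 32.8, 34.1 and 30.4 CPM in P6D4, against 0.575, 0.891 and 0.666 CPM in 70Z/3, a change of 5.50 ± 0.11 (edgeR adjusted p = 9.06e-15). RefSeq lists both as transcribed pseudogenes in the C57BL/6J genome, so these values are RNA levels and say nothing of a working protein.

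The OAS genes include those of enzymes that make the second messenger oligoadenylate, and the related OAS-like genes. Oas3 had 8.53, 12.8 and 12.1 CPM in P6D4, against 0.489, 0.456 and 0.378 CPM in 70Z/3, higher by 4.64 ± 0.21 (log2, SE; edgeR adjusted p = 6.63e-11). Oas2 had 1.19, 1.46 and 1.11 CPM in P6D4, against 0.0213, 0.0829 and 0.133 CPM in 70Z/3, a change of 3.96 ± 0.34 (edgeR adjusted p = 8.58e-08). Oas1a was near the detection limit, with 8, 8 and 6 counts in P6D4 and 0, 1 and 1 counts in 70Z/3. The ratio was 9.83 with an exact 95% counting interval of 2.42 to 86.3. Oas1a has a close copy, Oas1g, and reads that align to both may be uncounted. The OAS-like genes ran the other way. Oasl1, which in mouse cells holds back translation of Irf7 RNA, had 0.415, 0.361 and 0.267 CPM in P6D4, against 45.7, 47.0 and 46.3 CPM in 70Z/3, a change of -7.04 ± 0.09 (edgeR adjusted p = 1.43e-16). Its P6D4 level rested on 23, 19 and 13 counts, so this SE understates the counting error. Oasl2 had 0.343, 0.323 and 0.144 CPM in P6D4, against 2.36, 2.24 and 2.40 CPM in 70Z/3, a change of -3.08 ± 0.21 (edgeR adjusted p = 8.89e-09).

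All 3 IFIT genes listed as members, whose products bind foreign RNA, were lower in P6D4, as were 43.2% of all tested genes. None of the members passed the 2-fold test, where 18.6% of all genes were more than 2-fold lower. Ifit1bl1, a gene of the same cluster outside the members, was lower past 2-fold. Its log2 fold change was -5.85, on 5 counts in all in P6D4. Ifit2 averaged 23.0 ± 1.68 CPM in P6D4, against 44.2 ± 2.21 CPM in 70Z/3, and Ifit1 averaged 1.02 ± 0.265 in P6D4 and 2.05 ± 0.401 in 70Z/3 (CPM with SD, n = 3 each). Their log2 fold changes were -0.94 ± 0.06 and -0.997 ± 0.20 (SE; edgeR adjusted p = 2.49e-09 and 0.000388). Ifit3 rested on 16, 7 and 9 counts in P6D4 and 31, 17 and 16 counts in 70Z/3. Its change of -1.15 ± 0.36 (edgeR adjusted p = 0.00895) lost its call without 70Z/3 replicate 1, at -0.79 (adjusted p = 0.0641), over a range of 0.00312 to 0.0641 in the settings that tested it. It was too low to be tested with a filter of 1 CPM in 3 libraries. Ifit3 has a near-identical copy, Ifit3b, and the annotated span of Ifit1bl1 covers Ifit1, so reads of both members may be partly uncounted.

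In the ISG15 pathway, which tags proteins with the ubiquitin-like Isg15, the 3 genes listed as members were higher in P6D4, as were 43.3% of all tested genes. Uba7 and Herc6, given below from outside the members, were both lower. Isg15 had 7.97, 7.27 and 7.12 CPM in P6D4, against 2.64, 1.64 and 1.599 CPM in 70Z/3, a change of 1.93 ± 0.15 (SE; edgeR adjusted p = 2.97e-08). Usp18, the protease that removes Isg15 and also restrains the type I receptor, had 4.72, 5.56 and 4.21 CPM in P6D4, against 1.43, 1.78 and 1.69 CPM in 70Z/3, a change of 1.57 ± 0.14 (edgeR adjusted p = 1.16e-07). Trim25, a ubiquitin ligase that acts on the sensor RIG-I, averaged 217 ± 3.64 in P6D4 and 113 ± 4.80 in 70Z/3 (CPM with SD, n = 3 each), higher by 0.95 ± 0.04 and under 2-fold. Uba7, the enzyme that activates Isg15 for transfer, was named after its values were seen and was lower in P6D4, at 12.4 ± 1.58 in P6D4 and 39.7 ± 1.40 in 70Z/3 (CPM with SD, n = 3 each; log2 fold change -1.69 ± 0.07 SE). Herc6, from the same further list and also named after its values were seen, was lower too. It averaged 25.3 ± 1.31 CPM in P6D4, against 76.2 ± 4.23 CPM in 70Z/3 (log2 fold change -1.59 ± 0.05 SE).

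Samhd1 (ENSMUSG00000027639; chromosome 2, 157097534 to 157135096), which breaks down deoxynucleotides and so starves reverse transcription, had the largest fitted fall of the members. It had 7, 6 and 6 counts in P6D4 libraries, or 0.126, 0.114 and 0.123 CPM, against 61.0, 56.9 and 57.6 CPM in 70Z/3, and the log2 fold change came to -8.89 ± 0.10 (SE; edgeR adjusted p = 3.26e-17). As few counts lie behind the P6D4 level, this SE understates the counting error, and the order of Samhd1 and Ifih1 is not resolved. Adar, which converts adenosine to inosine in double-stranded RNA, was higher by 0.67 ± 0.04, at 94.7 ± 2.51 in P6D4 and 59.4 ± 1.33 in 70Z/3 (CPM with SD, n = 3 each). The exonuclease gene Isg20 was not called, with 4.99, 6.41 and 5.54 CPM in P6D4 and 6.0, 6.05 and 6.26 CPM in 70Z/3 (log2 fold change -0.11 ± 0.10 SE; edgeR adjusted p = 0.296).

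The pair of membrane-bound effectors was split. Bst2, or tetherin, which holds budding virus at the cell surface, had 132, 137 and 133 CPM in P6D4, against 38.8, 42.3 and 45.2 CPM in 70Z/3, a change of 1.67 ± 0.05 (SE; edgeR adjusted p = 6.93e-13). Rsad2, or viperin, which makes a chain-terminating nucleotide, had 0.0901, 0.190 and 0.103 CPM in P6D4, against 1.83, 1.76 and 1.599 CPM in 70Z/3, a change of -3.74 ± 0.24 (edgeR adjusted p = 4.56e-09). Cmpk2, the neighbouring kinase gene that supplies viperin's substrate, was at 0 in P6D4, against 5.18 ± 0.327 CPM in 70Z/3 (SD, n = 3), at least 90.01-fold lower in P6D4 against a floor of 3 counts per library.

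Parp9, Parp14 and Dtx3l, genes of ADP-ribosylation and of a ubiquitin ligase that works with Parp9, were all lower in P6D4 by less than 2-fold. Of all tested genes, 43.2% were called lower. Outside the members, Parp10 ran the other way and past 2-fold. It averaged 75.7 ± 2.61 in P6D4 and 28.8 ± 1.53 in 70Z/3 (CPM with SD, n = 3 each), a log2 fold change of 1.39 ± 0.05 (SE). Parp11, also outside the members, was lower, at -0.92 on the log2 scale. The choice of Parp10 and Parp11 was made with their levels already known. Parp14 averaged 21.5 ± 2.02 in P6D4 and 41.2 ± 2.83 in 70Z/3 (CPM with SD, n = 3 each), a log2 fold change of -0.94 ± 0.07 (SE). Parp9 and Dtx3l had near-equal changes of -0.36 ± 0.04 and -0.31 ± 0.04. Their annotated bounds overlap on chromosome 16 and the strand setting of the counting is not given, so reads of the overlap may be uncounted. Of the remaining members, Ifi27 had 47.2, 53.5 and 43.7 CPM in P6D4, against 16.7, 16.0 and 16.5 CPM in 70Z/3 (log2 fold change 1.55 ± 0.07; edgeR adjusted p = 6.17e-11). Xaf1, which opposes the caspase inhibitor XIAP, was lower with a log2 fold change of -0.83 ± 0.07, at 9.13 ± 0.772 in P6D4 and 16.3 ± 0.244 in 70Z/3 (CPM with SD, n = 3 each). Ifi35 was not called, at 20.8 ± 1.25 in P6D4 and 19.8 ± 1.05 in 70Z/3 (CPM with SD, n = 3 each; edgeR adjusted p = 0.282). Ifi44 was barely detected, with 4, 0 and 0 counts in P6D4 and 2, 7 and 4 counts in 70Z/3.

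Tested members that are neighbours in the genome had the same direction within each group. Over all tested genes 43.3% were called higher and 43.2% lower, and how often neighbouring genes in general agree was not tested. Of 5 groups of members less than 200 kb apart, the Mx pair on chromosome 16 (97447035 to 97560901) was higher, the Oasl pair on chromosome 5 (114896926 to 114937911) was lower, the Ifit genes on chromosome 19 (34550550 to 34650009) were lower, and the Parp and Dtx3l genes on chromosome 16 (35831892 to 35972621) were lower as well. In the Oas cluster on chromosome 5 (120730333 to 120907544), Oas2 and Oas3 were higher in P6D4. Oas1b and Oas1c, paralogs in the same interval, were lower, at -0.51 and -0.87 on the log2 scale. Oas1b averaged 3.53 CPM in P6D4, against 5.04 CPM in 70Z/3, and Oas1c 8.12 CPM in P6D4, against 14.8 CPM in 70Z/3. Genes outside the interferon lists within 100 kb of these groups were looked up after the members' values were known. Tmprss2, a protease gene next to Mx2, averaged 4.15 CPM in P6D4 and had 0.00691 CPM in 70Z/3. Dtx1, a Notch target gene next to Oas2, averaged 188 CPM in P6D4 and 0.399 CPM in 70Z/3, a log2 fold change of 8.87. The other 11 tested flanking genes ran from -2.17 (Wdr5b, near Parp9) to 0.90 (Fam162a), with Lipa next to Ifit2 at -1.26 and 1500011B03Rik near Oasl2 at -1.29. All 4 flanking genes of the Oasl pair were lower, at -0.45 to -1.29. Inside the groups, Fam3b between Mx1 and Mx2 had a log2 fold change of 1.55 (0.402 CPM in P6D4, 0.136 CPM in 70Z/3). Gm13822 between Oasl2 and Oasl1 had one of -5.67 (0.00684 CPM in P6D4, 0.448 CPM in 70Z/3). The part of such neighbours in the members' values was not tested.

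**Figure D4:**
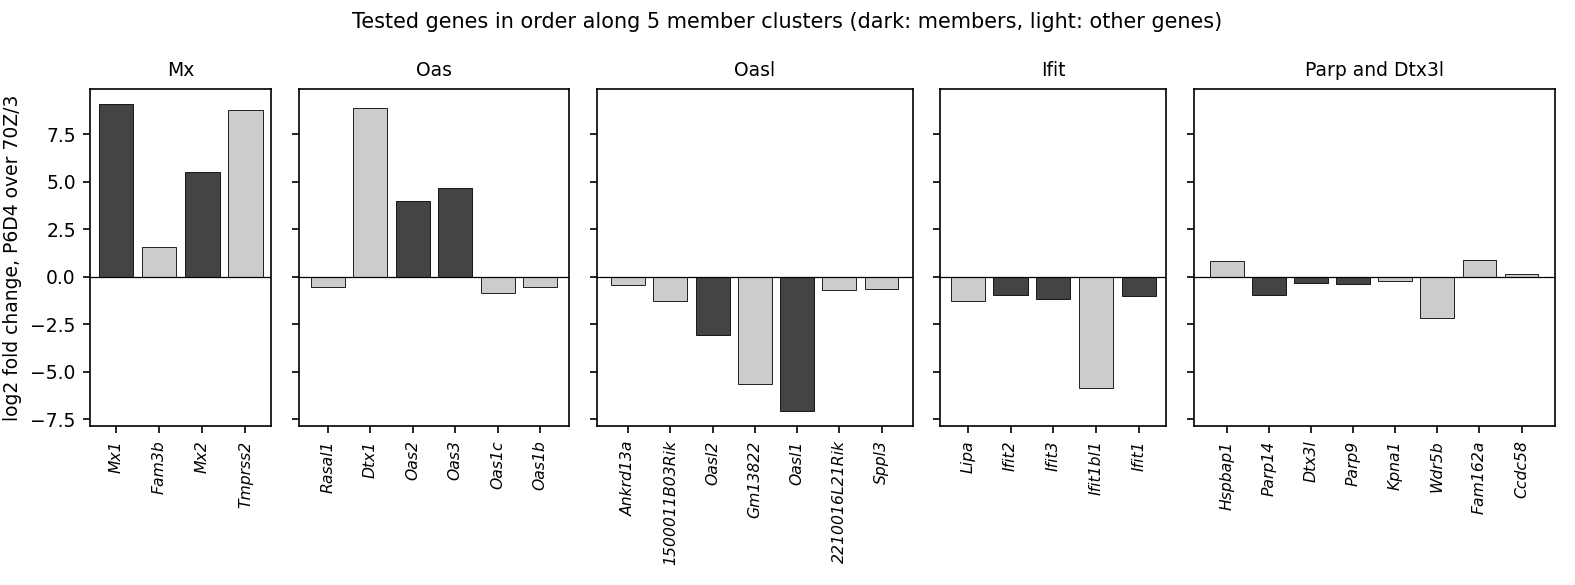
Log2 fold change of P6D4 over 70Z/3 for tested genes in order along 5 member groups and 100 kb on either side, members dark and other genes light. Bars of the Mx and Oasl groups point one way each, while in the Oas group Oas2 and Oas3 are up and Oas1c and Oas1b down; Oas1a had too few counts to test and has no bar.

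No member had a Miz1 peak at its start in either line. Of 26 members with a start in the promoter table, 0 had a summit within 1 kb in the P6D4 list or in the 70Z/3 list, where 0.858% and 2.8% of genes did. Of the other 9 members, placed by either end of the gene, 0 had one in either list, where 1.27% and 3.18% of genes did. With so low a share over all genes, 0 of 35 is near the background. The nearest summit to any member lay 7.15 kb from Ifit2 in the P6D4 list and 6.23 kb from Oasl2 in the 70Z/3 list, and the median distance was 145 kb in the P6D4 list and 95.7 kb in the 70Z/3 list. The lists rest on 1 ChIP library each, with 2.07 M tags kept in P6D4 and 4.48 M in 70Z/3, so a missing peak is not shown to be missing binding.

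The rest of the pathway was also divided between the lines. Of 18 tested genes of interferon receptors and JAK-STAT signalling (19 listed), 7 were higher and 10 lower in P6D4, with a median log2 fold change of -0.14. That is 94.4% called, against 86.5% of all genes, and 27.8% past 2-fold, against 35.2% of all genes. The type I receptor chains were near equal: Ifnar1 averaged 63.1 ± 2.09 CPM in P6D4, against 71.0 ± 2.61 CPM in 70Z/3, and Ifnar2 averaged 44.0 ± 3.61 in P6D4 and 37.5 ± 1.12 in 70Z/3 (CPM with SD, n = 3 each). Both differences passed the edgeR test (adjusted p = 0.00155 and 0.00209), at -0.17 and 0.23 on the log2 scale. Stat2, which joins Irf9 in ISGF3, averaged 104 ± 4.14 in P6D4 and 61.1 ± 2.65 in 70Z/3 (CPM with SD, n = 3 each), higher by 0.77 ± 0.04 (log2, SE). With Irf9 at 0.88, both genes were higher in P6D4 by less than 2-fold.

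The kinases of the type I receptor ran the other way. Jak1 averaged 198 ± 2.67 CPM in P6D4, against 680.0 ± 33.8 CPM in 70Z/3, and Tyk2 averaged 47.3 ± 0.496 in P6D4 and 86.1 ± 1.64 in 70Z/3 (CPM with SD, n = 3 each), both lower, at -1.78 and -0.86 on the log2 scale. Of the interferon gamma receptor, Ifngr1 had a log2 fold change of -0.21 and Ifngr2 of -2.53 ± 0.07 (SE), the second at 5.60 ± 0.510 in P6D4 and 32.3 ± 0.818 in 70Z/3 (CPM with SD, n = 3 each). Ifnlr1, the chain for type III interferon, had 4 counts in all in P6D4, against 11.4 ± 0.700 CPM in 70Z/3 (SD, n = 3). Stat3 was higher by 0.91 ± 0.05, and the feedback inhibitor Socs3 averaged 13.6 CPM in P6D4, against a single read in 70Z/3. Of the interferon genes themselves only Ifnb1 and Ifng were looked up. Ifnb1 had no count in any library, and Ifng had 104 counts in all in P6D4 and 0 in 70Z/3, at least 10.3-fold higher against a floor of 3 counts per library.

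Of 20 tested genes of nucleic acid sensing (22 listed), 7 were higher and 11 lower, with a median of -0.26. In all 18 of the 20 were called, near the 86.5% of all genes, and 45.0% were past 2-fold, where 35.2% of all genes were. The RIG-I gene Ddx58 was near equal, at 29.5 ± 1.13 in P6D4 and 34.5 ± 3.25 in 70Z/3 (CPM with SD, n = 3 each; log2 fold change -0.23), and Mavs, the adaptor that both RIG-I and MDA5 use, was higher by 0.80 ± 0.05 (SE). In the DNA branch, the sensor Mb21d1 (cGAS) was higher at 26.4 ± 1.24 CPM in P6D4, against 12.1 ± 0.333 CPM in 70Z/3, and its partner Tmem173 (STING) lower at 24.7 ± 1.06 in P6D4 and 66.2 ± 2.75 in 70Z/3 (CPM with SD, n = 3 each). Their log2 fold changes were 1.13 ± 0.06 and -1.42 ± 0.05 (SE). The kinase Ikbke was higher by 0.84 ± 0.04. The endosomal receptor Tlr9 had 6 counts in all in P6D4, against 9.14 ± 0.530 CPM in 70Z/3 (SD, n = 3), and Tlr3 had a single read in P6D4, against 4.92 CPM in 70Z/3, where it was 772 times higher (exact 95% counting interval 138 to 30527).

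Of 47 tested further interferon-induced genes (57 listed), 21 were higher in P6D4 and 24 were lower (median -0.18), or 95.7% called beside 86.5% of all genes. Past 2-fold were 57.4% of them and 35.2% of all genes. All these lists were chosen with earlier results of these data known, so their shares are descriptions only. Slfn2, a regulator of lymphocyte quiescence, averaged 3.80 CPM in P6D4 and had 3 counts in all in 70Z/3, where it was 179 times lower (interval 60.8 to 868). The GTPase gene Iigp1 averaged 1.40 CPM in P6D4 and had 1 count in 70Z/3. Ifitm3, which blocks virus entry, had 2 counts in all in P6D4, against 5.18 ± 0.418 CPM in 70Z/3 (SD, n = 3), where it was 406 times higher (interval 112 to 3359).

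**Figure D5:**
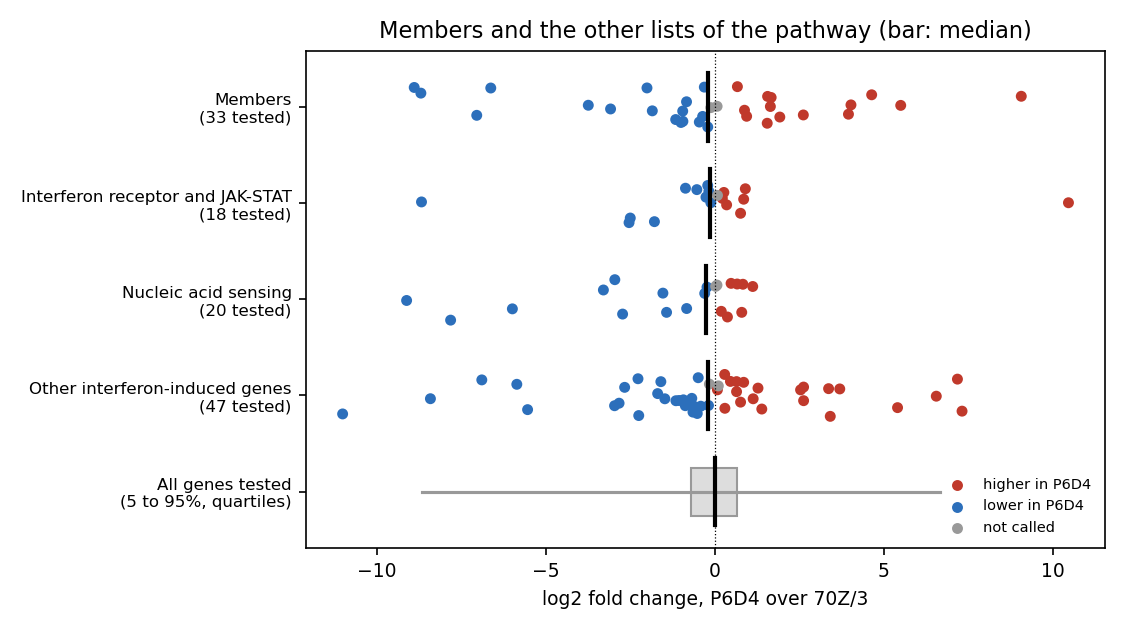
Log2 fold change of P6D4 over 70Z/3 for each tested gene of the members and of 3 further lists, red where higher in P6D4, blue where lower and grey where not called, with black bars for medians; the bottom row gives the median, the quartiles and the 5 to 95% range of all 13750 genes tested. Medians run from -0.26 to -0.14 in the lists and genes lie on both sides of 0 in each.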

How the data were processed

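For each RNA library the authors deposited raw read counts by Ensembl gene. The submitters' processing notes list TopHat2 2.0.10, Bowtie2 2.10, SAMtools, bedtools and HTSeq, and the builds mm10 and GRCm38. A stranded kit was used, per the labels' protocols, but how strand entered the counting was not found in these sources. HTSeq's closing summary lines, 5 per file, were dropped. Non-unique alignments, which HTSeq does not count, amounted to 1.10 to 1.14 for each counted read in P6D4 libraries and 1.41 to 1.44 in 70Z/3 libraries. Per the file headers the authors called Miz1 peaks with MACS 2.0.10.20120913 (q-value threshold 0.01) on 1 library per line; the deposited pileup signal and fold ratio are the authors' own values per peak and served only for stricter thresholds.

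Counts were scaled with TMM and tested with edgeR 4.0.16 in R 4.3.3 (filterByExpr, quasi-likelihood test, glmTreat at a log2 fold change of 1, Benjamini-Hochberg over 13750 genes, threshold 0.05), with line as the only term. The SE is the log2 fold change divided by the square root of F, and no fitted SE. Counting intervals and floors cover counting error only. Chi-square per degree of freedom between libraries of 1 line was 2.56 to 14.7, above sampling noise. The test was tried on simulated counts first. Symbols came from a name table (36345 of 38293 genes), and positions and promoters from RefSeq (GRCm38.p6).

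Members and lists were chosen with earlier results of these data known. All members are named, with values per library for those past 2-fold and for IRFs; of each further list, the called genes with the 2 largest changes in each direction are named, if they reach 1 CPM in either line, with a set of pathway genes. Gbp5 and Gbp6 of the lists had no match, and Mb21d1 was matched as Cgas. Alternatives were other scalings and filters, DESeq2 1.42.0, a replicate block, leaving out each library, other windows and thresholds for peaks and other motifs. ChIP samples of histone marks and input are not used here, and some genes are not reported here.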

Additional observations from a re-analysis of the deposited data

How the results depend on the processing

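Counts of members kept within 1.5 times their value under each alternative run. Across other scalings, filters, DESeq2 and leaving out each library, 14 to 15 members were higher and 16 to 17 lower, and 11 to 12 were more than 2-fold higher and 8 more than 2-fold lower. Without a filter, 15 members were higher and 12 of them more than 2-fold. The median log2 fold change of the members ran from -0.25 to -0.15, and that of all genes from -0.03 to 0.06, so no scaling moved the whole by over 0.1. Leaving out 1 library gave 14 members higher each time and 16 to 17 lower. Of 395 member results under alternatives, 394 kept direction and call, and Ifit3 without 70Z/3 replicate 1 did not (-0.79, edgeR adjusted p = 0.0641). Ifit3 was also too low to test with a filter of 1 CPM in 3 libraries, where 16 members were lower. Peak counts stayed at 0 with summits up to 5 kb away, as the nearest summits lay 7.15 kb (P6D4 list) and 6.23 kb (70Z/3 list) off. The stricter thresholds keep only a part of the same peaks, so their counts of 0 were fixed in advance and test nothing. Low counts in 1 line limit Ifih1, Samhd1, Rsad2, Ifit3, Irf5, Mx1 and the OAS genes, and there the SE can understate the counting error.

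The replicate numbers carry no stated pairing: deviations of same-numbered libraries correlated at -0.06, -0.05 and 0.01, and P6D4 replicate 1 correlated best with 70Z/3 replicate 2. With the replicate block, 14 members were higher and 17 lower, 11 and 8 of them more than 2-fold, and the median was -0.20; the block changed no call of a member.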

Other observations

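Some further interferon-induced genes, named here after their values were seen, are given by family. Of the interferon-inducible GTPases, Gbp4 averaged 12.8 CPM in P6D4 and 0.299 CPM in 70Z/3 (log2 fold change 5.41 ± 0.16 SE) and Igtp 21.8 CPM in P6D4 and 8.95 CPM in 70Z/3 (1.28 ± 0.06), and Tgtp1 0.316 CPM in P6D4 and 0.0285 CPM in 70Z/3 (3.37 ± 0.50). Gbp7 and Irgm2 were higher by 0.47 and 0.65, Gbp2 and Irgm1 lower with a log2 fold change of -0.41 and -0.49, and Gbp3 was not called, at -0.16 (edgeR adjusted p = 0.15). Ifi47 was lower, at 12.1 CPM in P6D4, against 57.2 CPM in 70Z/3 (-2.25 ± 0.06). Trim21, Trim30a and Trim34a were all lower past 2-fold, as were 18.6% of all tested genes, at -1.15, -2.83 and -2.66 on the log2 scale. Trim30a averaged 11.4 CPM in P6D4 and 81.0 CPM in 70Z/3. The member Trim25 ran the other way, higher by 0.95. Of the IFITM genes, which hinder virus entry, Ifitm1 averaged 2.94 CPM in P6D4 and 0.0287 CPM in 70Z/3, while Ifitm2 averaged 5.84 CPM in P6D4 and 28.0 CPM in 70Z/3.

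Of the genes of the p200 family of DNA-binding proteins, Ifi204 was higher by 3.70 ± 0.13, at 16.5 CPM in P6D4, against 1.27 CPM in 70Z/3, Mndal was lower with a log2 fold change of -0.68 ± 0.05 and Ifi203 was not called, at 0.11 (edgeR adjusted p = 0.0551). The surface gene Ly6e averaged 1714 ± 46.9 in P6D4 and 277 ± 13.3 in 70Z/3 (CPM with SD, n = 3 each), and Lgals3bp 86.9 ± 3.58 CPM in P6D4 and 8.13 ± 0.661 CPM in 70Z/3. The chemokine gene Cxcl10 had 3 counts in all in P6D4, against 2.56 ± 0.334 CPM in 70Z/3 (SD, n = 3). Nlrc5, the transactivator of MHC class I genes, averaged 19.1 ± 1.18 in P6D4 and 126 ± 1.48 in 70Z/3 (CPM with SD, n = 3 each; -2.72 ± 0.05 SE). Myd88, the adaptor upstream of Irf5 and Irf7, averaged 4.91 ± 0.420 in P6D4 and 47.9 ± 3.58 in 70Z/3 (CPM with SD, n = 3 each; -3.29 ± 0.08 SE).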
